A study of Homo sapiens with 4 samples.

Results

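The genes described here are 56 interferon-stimulated genes and interferon pathway factors, chosen by gene name from a written list, and all 56 were found among the 55764 gene names of the deposited expression table. Bulk RNA of TE5, a cell line from a human oesophageal squamous carcinoma, was sequenced to ask which transcripts change when the transcription factor ETS1 is stably overexpressed. The 2 ETS1 libraries came from cells carrying a lentiviral vector that encodes human ETS1, and the 2 control libraries from cells carrying the empty backbone. Per the labels the ETS1 vector uses a CMV promoter, both groups were infected with packaged virus and selected, and neither group is described as treated with an interferon. Whether the lines are clones or pools is not stated, nor whether the duplicates are separate cultures, so p-values measure only the spread between these libraries, which may be technical.

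Interferons are secreted proteins that bind receptors on the cell surface and, through JAK kinases, activate transcription factors of the STAT family. A complex that holds STAT2 and IRF9 binds the interferon-stimulated response element in the promoters of many target genes, whereas STAT pairs activated by interferon gamma bind a different element called GAS. The products include proteins that block viral entry, sense foreign RNA, or attach the ubiquitin-like protein ISG15 to other proteins, and many tumour lines keep some of these genes active without added interferon.

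To show what these promoters look like, upstream stretches of 6 members are printed: 3 that were higher with ETS1 (OAS3, IFIT1, IFI6), 1 that was lower (ISG15) and 2 that did not pass the test (HERC5, IFI27). They are RefSeq promoter sequences on GRCh38.p14, each beginning 250 bases before the RefSeq start and ending before annotated exon sequence, written 5′ to 3′ on the gene's strand. The positions are chr12:112938224-112938351 (plus strand) for OAS3, chr10:89392373-89392545 (plus) for IFIT1, chr1:27672219-27672442 (minus) for IFI6, chr1:1013247-1013422 (plus) for ISG15, chr4:88456869-88457116 (plus) for HERC5 and chr14:94110486-94110677 (plus) for IFI27. Capitals mark GAAANNGAAA, the core of the interferon-stimulated response element, on either strand.
OAS3: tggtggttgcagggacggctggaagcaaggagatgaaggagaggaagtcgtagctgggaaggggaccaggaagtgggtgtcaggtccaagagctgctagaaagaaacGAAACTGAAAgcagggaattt
IFIT1: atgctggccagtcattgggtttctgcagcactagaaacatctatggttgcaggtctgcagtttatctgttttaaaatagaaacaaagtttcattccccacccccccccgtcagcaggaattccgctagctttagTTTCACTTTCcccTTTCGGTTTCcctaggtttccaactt
IFI6: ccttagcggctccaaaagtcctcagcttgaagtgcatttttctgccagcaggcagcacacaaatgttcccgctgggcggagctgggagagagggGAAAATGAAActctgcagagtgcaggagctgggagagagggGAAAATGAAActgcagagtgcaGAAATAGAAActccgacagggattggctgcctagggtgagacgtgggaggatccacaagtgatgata
ISG15: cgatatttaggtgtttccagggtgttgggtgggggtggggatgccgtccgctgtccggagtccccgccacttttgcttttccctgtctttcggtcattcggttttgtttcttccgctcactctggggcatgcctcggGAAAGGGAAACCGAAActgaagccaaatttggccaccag
HERC5: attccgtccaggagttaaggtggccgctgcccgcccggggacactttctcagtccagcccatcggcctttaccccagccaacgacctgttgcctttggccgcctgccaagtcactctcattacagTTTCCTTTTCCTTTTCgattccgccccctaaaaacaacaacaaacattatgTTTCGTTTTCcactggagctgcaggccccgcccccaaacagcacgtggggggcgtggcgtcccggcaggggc
IFI27: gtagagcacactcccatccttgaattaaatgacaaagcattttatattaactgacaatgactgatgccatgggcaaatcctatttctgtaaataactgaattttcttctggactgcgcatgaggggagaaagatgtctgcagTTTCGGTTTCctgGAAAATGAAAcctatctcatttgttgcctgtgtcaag
The 6 were chosen, with their calls and matches known, from members that hold the motif, so that each of them has a match says nothing about the other members. The motif search covered 250 bases before the RefSeq start of the 43 members matched by symbol in a table of 35116 promoters, on both strands and counting overlapping matches. GAAANNGAAA was found in 19 of the 43 members' promoters (44.2%) and in 3.02% of all promoters. It was present in 8 of 18 members called higher (44.4%), 3 of 7 tested but not called (42.9%) and 7 of 17 too low to test (41.2%), and ISG15, the 1 matched member called lower, held 2 matches. The shares in these 3 groups of members lay within a few points of each other. The GAS-type motif TTCNNNGAA was found in 18.6% of the members' promoters and 6.57% of all promoters. CCGGAAG, a sequence of the type bound by ETS factors, was in 3 of the 43 (6.98%; IFNGR2, ADAR and RSAD2) and in 8.52% of all promoters. Each motif was searched on its own, so matches to different motifs may share bases. A match is a description of letters in the window, and binding was not measured.

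**Figure D1:**
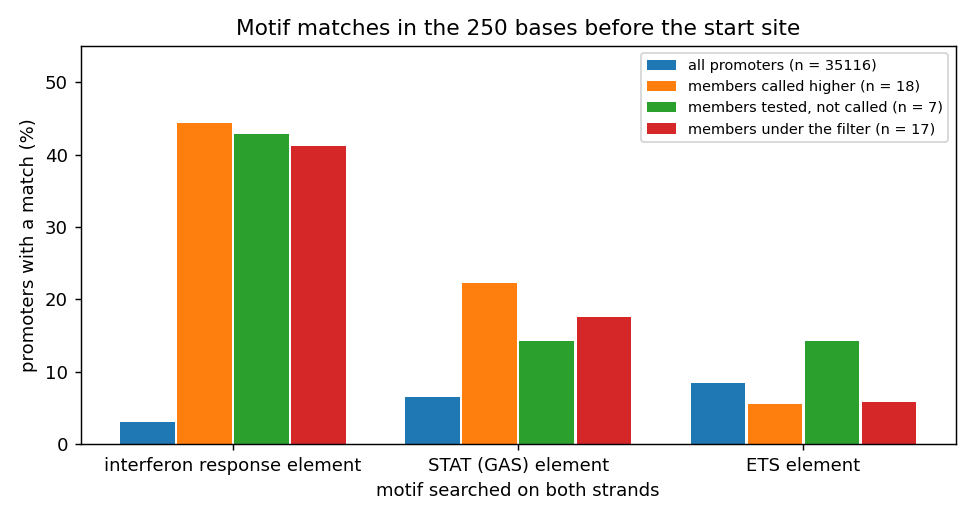
Percent of promoters (250 bases before the start, both strands) with a match to each of 3 motifs, for all 35116 promoters and for members grouped by their call, with the 1 matched member called lower left out. The interferon-type motif stands at 44.4%, 42.9% and 41.2% in the 3 groups of members against 3.02% in all promoters.

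The members' levels are given as FPKM, the authors' fragment counts divided by gene length and library size, in the order control 1, control 2, ETS1 1 and ETS1 2. ETS1 itself was 0.491 and 0.509 FPKM in the controls and 1.84 and 1.87 in the ETS1 libraries, higher where the labels say so. The ETS1 libraries were 1.35 times as deep, with 57270011 and 56502903 recovered reads against 40356727 and 44119609. FPKM scales levels to depth, but genes with few reads are more easily listed at 0 in the shallower controls. The squamous markers KRT5, KRT14, KRT6A and TP63 were at 0 in both controls and at most 0.0165 FPKM with ETS1, so the labelled squamous type is not visible in these genes. Of the epithelial keratins, KRT8 was higher with ETS1 (3.91, 3.87, 6.48 and 6.59 FPKM), KRT18 lower (10.2, 10.5, 8.35 and 8.29 FPKM) and KRT19 at most 0.0224 FPKM. Of cells that could bring interferon genes with them, the pan-leukocyte gene PTPRC was at most 0.0117 FPKM and the plasmacytoid dendritic cell gene CLEC4C at most 0.0457 in every library. The summed level of 6 leukocyte markers ran from 1.39 to 1.64 FPKM in the controls and from 2.30 to 2.50 with ETS1, and that of 3 plasmacytoid markers from 4.20 to 4.30 and from 2.86 to 2.92, mostly IL3RA. Summed fibroblast markers (4 genes, mostly COL1A1) were 2.13 to 2.26 against 2.89 to 2.96 FPKM, and 2 endothelial markers at most 0.0506. The part of these differences in the results below was not tested.

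The membrane proteins IFITM2, IFITM3 and BST2, the RNA sensors OAS3 and EIF2AK2, and TRIM5, TRIM21 and TRIM25 were higher with ETS1, while ISG15, its protease USP18 and the transcription factor IRF7 were lower. Of the 33 members with a mean FPKM of at least 1, 19 were higher and 4 lower (limma on log2(FPKM + 1), two-sided, adjusted p under 0.05 over 14306 genes), and 10 did not pass. Over all genes tested 30.7% were called higher and 28.4% lower, so many genes moved in this comparison, the members more often upward than the background and less often downward by count, a difference that was not tested. The median log2 change of the 33 was 0.24, and that of all 14306 genes 0.016. The members' median was 0.097 over all 56 with no filter and 0.39 over the 36 in the authors' deposited table. With no filter 24 of the 56 were higher and 3 lower, where 10.3% of 35055 genes were higher and 9.24% lower. OAS3, IFIT1, TRIM5 and DTX3L had control values under 1 and passed the filter only through the ETS1 libraries, and IRF7 and IFI27 only through the controls, so the direction of these 6 was fixed by the filter. Among the 17 members with a mean FPKM of 5 or more, 11 were higher and 2 lower, where 31.2% of 8215 genes were higher and 36.5% lower. That count is a description too, since IFITM1 passed this filter only through the ETS1 libraries, and it includes SAMHD1, which did not pass in the fit of all 14306 genes. In bulk RNA, fewer cells making a transcript and less transcript per cell cannot be told apart.

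**Figure D2:**
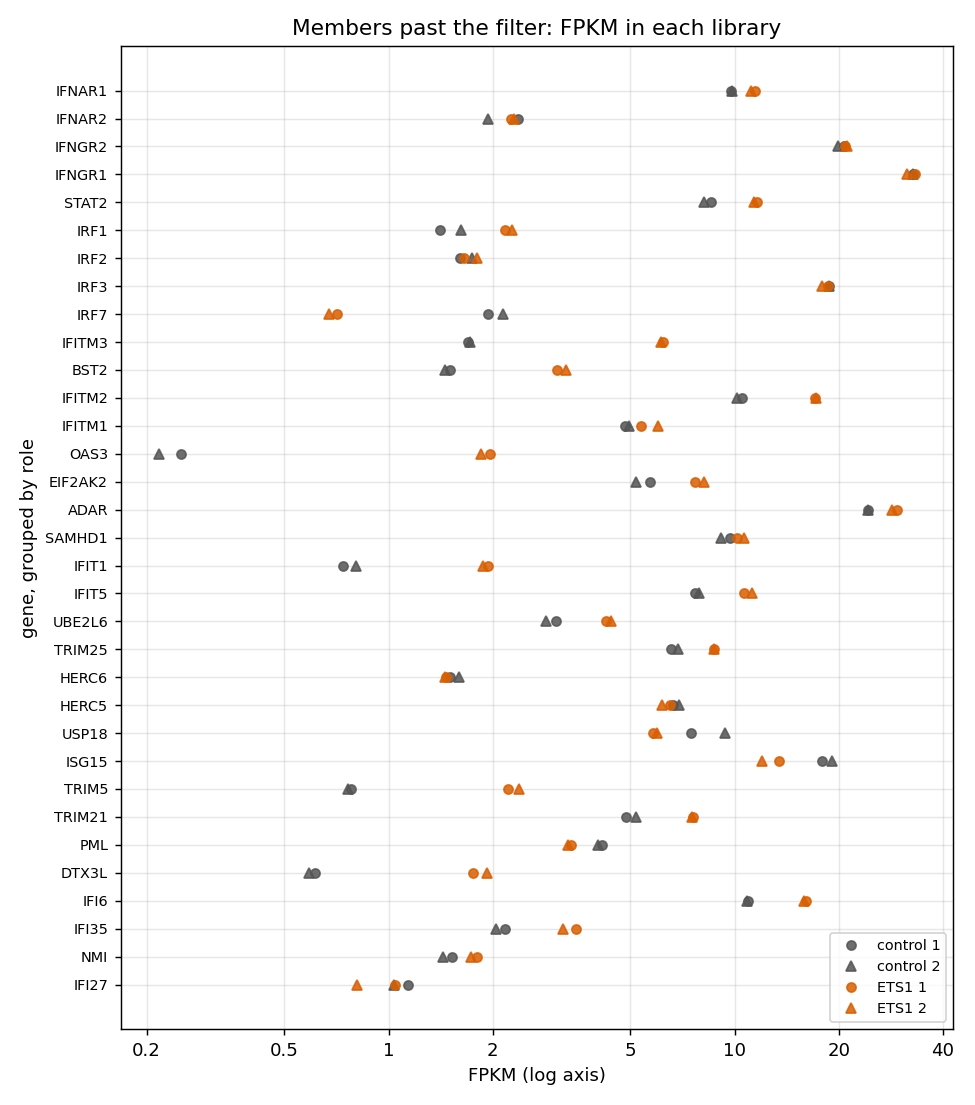
FPKM on a log axis for the 33 members that passed the filter, grouped by role, with 1 point for each control (grey) and ETS1 (orange) library. The groups are widely apart for OAS3, IFITM3 and, in the other direction, IRF7, and they interleave for receptors such as IFNAR2 and IFNGR1.

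The receptors changed little. IFNAR1, a chain of the type I interferon receptor, was 9.76, 9.85, 11.5 and 11.2 FPKM, a log2 change of 0.19 (SE 0.032, limma adjusted p 0.00705), but without ETS1 replicate 1 it did not pass (adjusted p 0.0544). Its partner IFNAR2 was 2.37, 1.94, 2.26 and 2.31 FPKM (log2 change 0.061, limma adjusted p 0.53). The ETS1 values of IFNAR2 lay between the controls. IFNGR1, the ligand-binding chain of the interferon gamma receptor, was 32.7, 32.7, 33.3 and 31.6 FPKM, with a log2 change of -0.013 (limma adjusted p 0.768). IFNGR2, the signalling chain, was 20.7, 19.8, 20.9 and 21.1 FPKM, with a log2 change of 0.047 (limma adjusted p 0.281). Neither gamma chain passed, and IFNGR1 was among the most abundant members. IFNAR2, IFNAR1 and IFNGR2 lie in that order on chromosome 21 with gaps of 58.8 and 43.0 kb. The IFNAR2 model overlaps AP000295.1, a protein-coding model on the same strand. IFNAR2 reads may be split, though the name AP000295.1 has no entry in the deposited expression table.

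The transcription factors did not move together. STAT2, part of the complex with IRF9, was 8.55, 8.13, 11.6 and 11.4 FPKM, a log2 change of 0.42 (SE 0.038, limma adjusted p 0.00128). IRF1, an activator that interferon gamma induces, was 1.41, 1.62, 2.18 and 2.28 FPKM, a log2 change of 0.36 (SE 0.065, limma adjusted p 0.00837). Both rose without overlap between the groups. IRF7, which amplifies type I interferon production, went the other way, with 1.94, 2.14, 0.709 and 0.672 FPKM. Its FPKM ratio was 0.339, its log2 change -0.84 (SE 0.066, limma adjusted p 0.00095), and the authors' deposited table gives it a log2 fold change of -1.53. IRF7 passed the filter of the limma fit only through the controls, which fixed its direction there. The fitted scale adds 1 FPKM before the logarithm and so understates changes at low levels. IRF3, the constitutive partner of IRF7 in inducing interferon beta, was 18.8, 18.7, 18.7 and 17.8 FPKM (log2 change -0.036, limma adjusted p 0.391). IRF2, an antagonist of IRF1, was 1.61, 1.74, 1.65 and 1.80 FPKM (log2 change 0.029, limma adjusted p 0.714). Neither passed. IRF9, the DNA-binding partner of STAT2, was too low to test, with 0.424, 0.316, 0.450 and 0.512 FPKM and both ETS1 values above both controls. The IRF9 model lies within AL136295.5, a protein-coding model on the same strand. IRF9 reads may be split or left uncounted, though the name AL136295.5 has no entry in the deposited expression table.

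The 4 members that act on viral membranes were all called higher, 1 of them narrowly, where 30.7% of all genes tested were called higher. IFITM3, which holds incoming viruses in endosomes, was 1.69, 1.72, 6.22 and 6.12 FPKM, a ratio of 3.62 and a log2 change of 1.41 (SE 0.041, limma adjusted p 0.000369). IFITM2, a close relative, was 10.5, 10.1, 17.1 and 17.2 FPKM, a log2 change of 0.68 (SE 0.032, limma adjusted p 0.000482). BST2, or tetherin, which retains budding virus at the cell surface, was 1.51, 1.46, 3.06 and 3.26 FPKM, a log2 change of 0.74 (SE 0.053, limma adjusted p 0.000785). In each of these genes both ETS1 libraries stood well above both controls. IFITM1 was 4.82, 4.95, 5.37 and 6.00 FPKM, a log2 change of 0.18 (SE 0.057, limma adjusted p 0.0446). Its call was lost under 10 of 14 other settings, and the authors' deposited table gives it an adjusted p of 0.353. The IFITM genes are similar in sequence, and the IFITM1 and IFITM2 models share 1767 bases. The split of reads among the 3 genes, IFITM3 included, is therefore uncertain. The 3 lie side by side on chromosome 11, where IFITM3 (319669 to 327537, minus strand) is followed after 285 kb by IRF7 (612553 to 615999, minus strand). On the log2(FPKM + 1) scale these had the largest rise and the largest fall of the tested members, though by FPKM ratio OAS3 on chromosome 12 rose more.

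Of 9 members that sense nucleic acids or restrict viruses as enzymes, 4 were tested, of which OAS3, EIF2AK2 and ADAR rose and SAMHD1 did not pass. Over all genes tested, 30.7% were called higher. OAS3 makes short chains of adenylate that act as a second messenger, and it had 0.252, 0.217, 1.97 and 1.85 FPKM, from 84, 79, 932 and 863 reads. The FPKM ratio was 8.14, the largest of the tested members, with a log2 change of 1.24 (SE 0.069, limma adjusted p 0.000557). On reads without the added 1 FPKM, limma's voom gave 3.03. OAS3 passed the filter only through the ETS1 libraries, so its direction was fixed by the filter. EIF2AK2 (PKR), which halts translation on double-stranded RNA, was 5.70, 5.18, 7.69 and 8.14 FPKM, a log2 change of 0.47 (SE 0.055, limma adjusted p 0.00241). ADAR, which converts adenosine to inosine in such RNA, rose by 0.24 (SE 0.030, limma adjusted p 0.00265) from 24.3 FPKM in both controls to 29.4 and 28.5. The dNTP hydrolase SAMHD1 had a log2 change of 0.13 (limma adjusted p 0.0506), its groups did not overlap, and it passed under 3 other settings.

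OAS3 (chromosome 12, 112938352 to 112973249) lies between OAS1 and OAS2, 5.13 and 5.15 kb away, and these neighbours were near 0. OAS2 had 1, 1, 15 and 14 reads, a depth-scaled ratio of 10.8 with an exact 95% interval of 2.72 to 93.1. OAS1 was listed at 0 in both controls and at 0.0089 and 0.0090 FPKM with ETS1. The related gene OASL was at most 0.112 FPKM. Per length, OAS3 had by far the highest level of the 4 OAS family members in the ETS1 libraries.

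**Figure D3:**
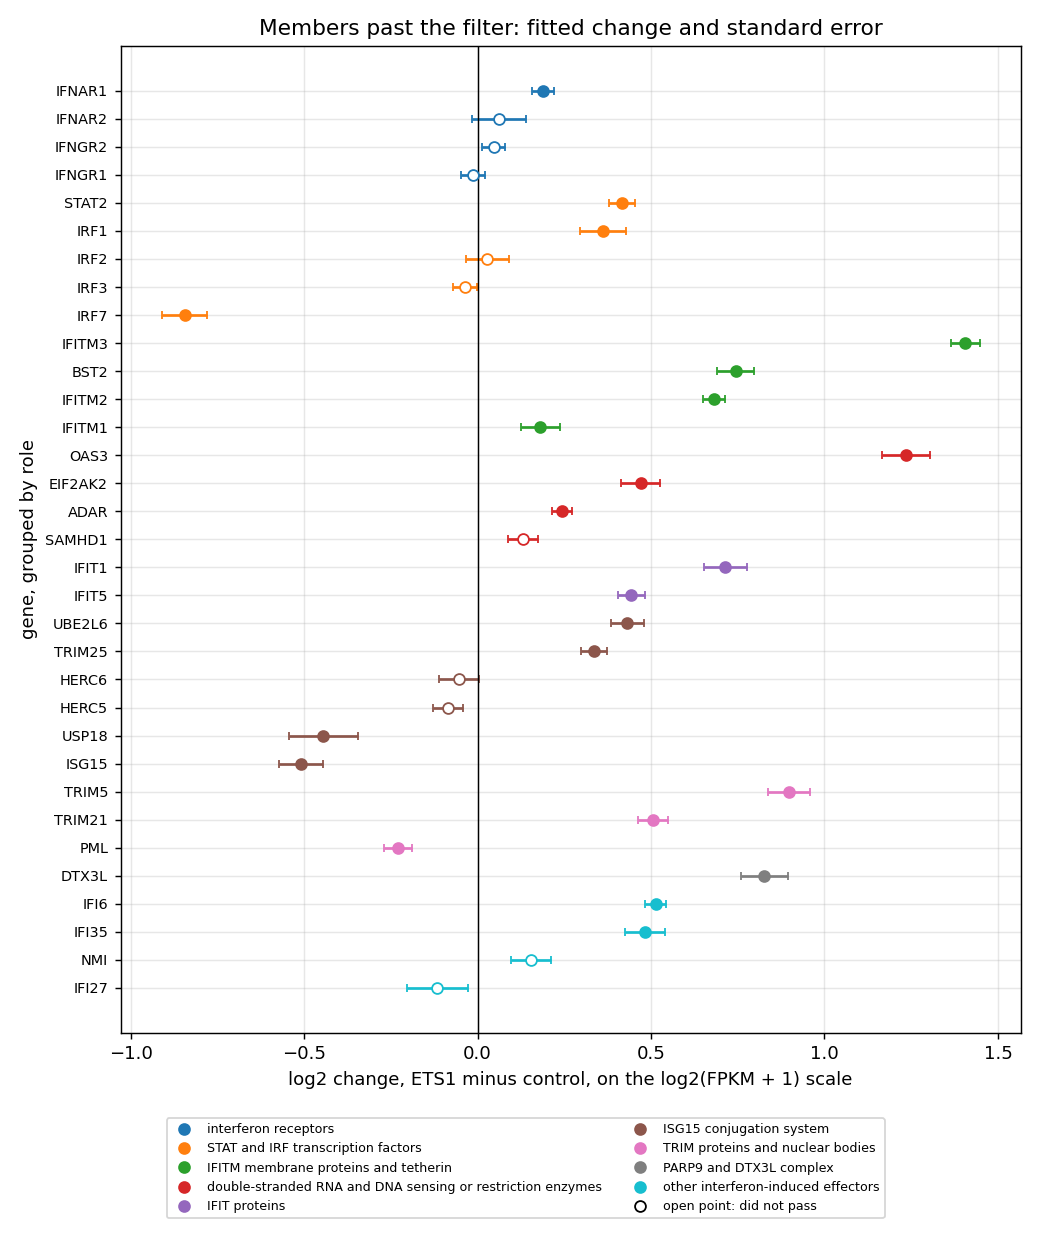
Fitted log2 change, ETS1 minus control, on the log2(FPKM + 1) scale with its standard error for the 33 members that passed the filter, grouped by role, with filled points for adjusted p under 0.05. IFITM3 (1.41) and OAS3 (1.24) lie farthest right and IRF7 (-0.84) farthest left, and the ISG15 conjugation genes fall on both sides of 0.

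The IFIT genes, whose products bind viral RNA and block its translation, lie in a row on chromosome 10 in the order IFIT2, IFIT3, IFIT1 and IFIT5. IFIT1 was 0.738, 0.808, 1.94 and 1.88 FPKM, a ratio of 2.47 and a log2 change of 0.71 (SE 0.061, limma adjusted p 0.00114). IFIT5, the most abundant, was 7.67, 7.87, 10.6 and 11.2 FPKM, a log2 change of 0.44 (SE 0.039, limma adjusted p 0.00123). Both ETS1 values of IFIT1 and of IFIT5 exceeded both controls, though IFIT1 passed the filter only through the ETS1 libraries, which fixed its direction. IFIT3, under the filter, was 0.431, 0.385, 1.12 and 0.902 FPKM, and the authors' deposited table lists a log2 fold change of 1.14 for it (adjusted p 9.94e-05). It reached that table only through the ETS1 libraries. IFIT2 had 18, 25, 94 and 112 reads, a depth-scaled ratio of 3.56 (2.55 to 5.06). All 4 were higher in both ETS1 libraries, by FPKM ratios from 1.41 for IFIT5 to 3.58 for IFIT2. IFIT1, IFIT2 and IFIT3 lie inside LIPA, a gene on the opposite strand at a mean of 18.2 FPKM, and the use of strand in counting is not stated, so reads of LIPA counted to them cannot be told apart.

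The ISG15 system, which works like ubiquitin with an activating, conjugating and ligating step, split in both directions. ISG15 itself was 17.9, 19.1, 13.5 and 12.0 FPKM, a ratio of 0.687 and a log2 change of -0.51 (SE 0.064, limma adjusted p 0.00284). USP18, the protease that removes ISG15 and also restrains the type I receptor, was 7.48, 9.38, 5.82 and 5.97 FPKM, a log2 change of -0.44 (SE 0.0997, limma adjusted p 0.0162). Both genes were lower in both ETS1 libraries, though USP18 did not pass with no filter (adjusted p 0.0852) or without ETS1 replicate 1 (0.0551). UBE2L6, the conjugating enzyme, rose, with 3.05, 2.84, 4.26 and 4.38 FPKM and a log2 change of 0.43 (SE 0.048, limma adjusted p 0.00204). TRIM25, a ligase that can act with ISG15 or with ubiquitin, was 6.55, 6.86, 8.74 and 8.72 FPKM, a log2 change of 0.34 (SE 0.037, limma adjusted p 0.00203). The main ISG15 ligase HERC5 (log2 change -0.084, limma adjusted p 0.153) and its neighbour HERC6 (-0.054, adjusted p 0.452) did not pass. The ISG15 model shares 1197 bases with an antisense model, AL645608.1, at a mean of 0.869 FPKM.

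Among TRIM proteins and components of nuclear bodies, TRIM5, which recognises retroviral capsids, was 0.780, 0.761, 2.21 and 2.39 FPKM, a ratio of 2.99 and a log2 change of 0.90 (SE 0.061, limma adjusted p 0.000733). TRIM21, a cytosolic antibody receptor and ubiquitin ligase, was 4.84, 5.20, 7.58 and 7.53 FPKM, a log2 change of 0.51 (SE 0.044, limma adjusted p 0.00116). Both rose, and neither overlapped between groups, though TRIM5 passed the filter only through the ETS1 libraries, which fixed its direction. TRIM22 had 10, 6, 73 and 60 reads, a depth-scaled ratio of 6.17 (3.66 to 11.1). The TRIM5 and TRIM22 models share 47401 bases on opposite strands, so their reads are not cleanly apart. SP100, a nuclear body protein, had 6, 7, 64 and 61 reads, a depth-scaled ratio of 7.14 (4.02 to 13.8). PML, which organises the same bodies, fell, from 4.13 and 4.03 to 3.37 and 3.30 FPKM (log2 change -0.23, SE 0.041, limma adjusted p 0.00792). PML lies on chromosome 15, where the median change of 390 tested genes was -0.23. With each chromosome's median removed PML was at 0.00072 (adjusted p 0.988), and it also missed the threshold without ETS1 replicate 2 (adjusted p 0.0534).

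PARP9 and the ubiquitin ligase DTX3L form a complex, and their genes start head to head on chromosome 3, with models that share 340 bases. DTX3L was 0.615, 0.589, 1.76 and 1.93 FPKM, a ratio of 3.06 and a log2 change of 0.83 (SE 0.067, limma adjusted p 0.00101). PARP9 was 0.329, 0.291, 0.958 and 0.950 FPKM, a ratio of 3.08, and the authors' deposited table lists a log2 fold change of 1.56 for it (adjusted p 1.02e-17). The pair thus moved by nearly equal ratios. DTX3L passed the filter, and PARP9 reached the authors' table, only through the ETS1 libraries, so both directions were fixed in advance. PARP14, 105 kb from DTX3L, had only 0, 5, 3 and 2 reads.

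Of the remaining effectors, IFI6, a mitochondrial and endoplasmic reticulum protein, was 11.0, 10.8, 16.1 and 15.9 FPKM, a log2 change of 0.51 (SE 0.030, limma adjusted p 0.000591). IFI35 was 2.17, 2.04, 3.49 and 3.20 FPKM, a log2 change of 0.48 (SE 0.057, limma adjusted p 0.00245). Both rose without overlap. NMI, the binding partner of IFI35, did not pass (log2 change 0.16, limma adjusted p 0.0694), and neither did IFI27 (-0.12, adjusted p 0.299), whose groups overlapped.

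The 23 members under the filter include genes often used to score an interferon response. MX1, a dynamin-like GTPase, had 12, 12, 23 and 31 reads, a depth-scaled ratio of 1.67 (1.02 to 2.83). MX2 had at most 1 read in each library. RSAD2 (viperin) had 0, 1, 1 and 4 reads and XAF1 1, 0, 2 and 5. At these depths no direction can be read for MX2, RSAD2 or XAF1. The guanylate-binding proteins GBP1 (7, 9, 23 and 17 reads; ratio 1.86, 1.02 to 3.55) and GBP2 (13, 25, 36 and 21 reads; ratio 1.11, 0.726 to 1.73) were also low. IFI44 had 1, 0, 7 and 10 reads (ratio 12.6, 1.98 to 527.3) and IFI44L 27, 23, 49 and 55 (ratio 1.54, 1.09 to 2.21). The DNA sensor IFI16 had 0, 4, 23 and 22 reads, a ratio of 8.35 (3.04 to 32.0). CMPK2, a nucleotide kinase, had 4, 5, 21 and 17 (ratio 3.13, 1.49 to 7.37). These intervals are exact at 95% on summed reads and cover counting error only. The exonuclease gene ISG20 had 105, 105, 146 and 157 reads, a ratio of 1.07 (0.895 to 1.28), and its groups overlapped. SAMD9, a restriction factor, was 0.707, 0.561, 1.10 and 1.04 FPKM, and the authors' deposited table lists a log2 fold change of 0.66 for it (adjusted p 0.000116). Its neighbour SAMD9L had 4, 16, 23 and 26 reads (ratio 1.82, 1.06 to 3.23).

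In 18 of these 23 members both ETS1 values lay above both controls, in 0 below, and in 5 the groups overlapped. Among 5962 protein-coding genes with a mean FPKM above 0 and under 1, both ETS1 values lay above both controls in 33.8% and below in 18%. PARP9, IFIT3 and SAMD9 are the 3 of the 23 that have an entry in the authors' deposited table, which calls 25.3% of its genes higher and 25.9% lower, and they were higher there. That table starts at a mean FPKM of 0.5, which PARP9 and IFIT3 reached only through the ETS1 libraries, so their direction in it was set by its filter.

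**Figure D4:**
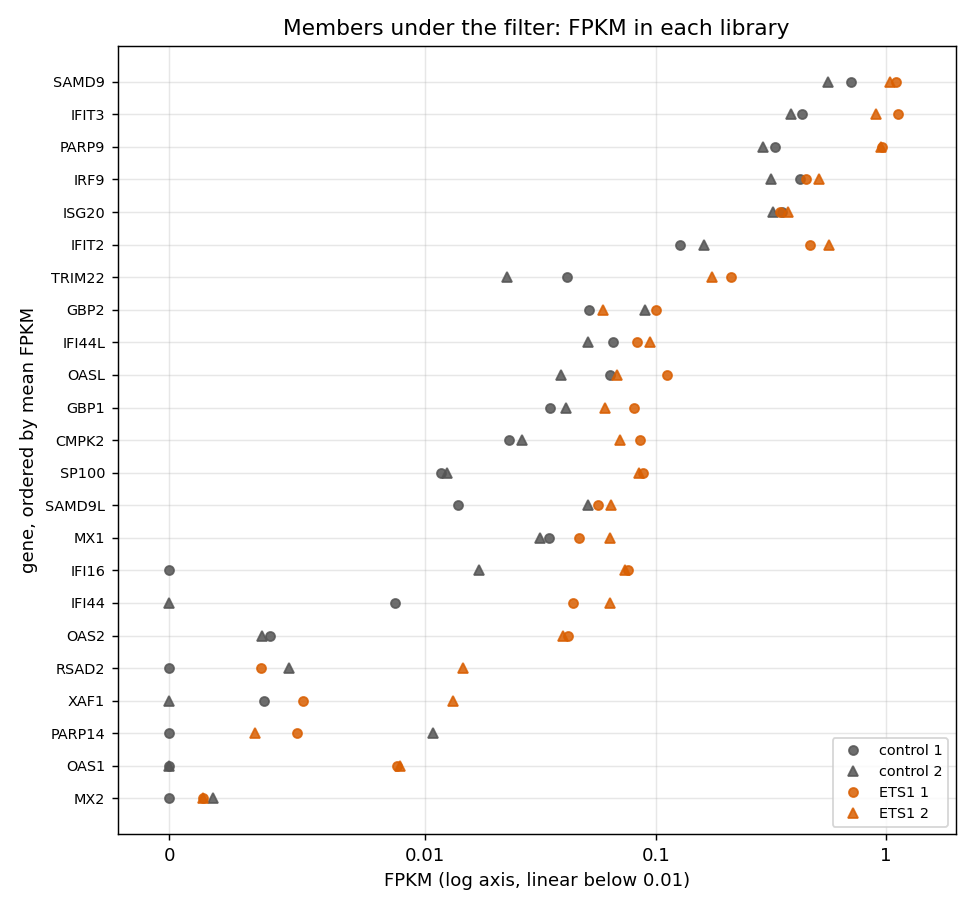
FPKM in each library (log axis, linear below 0.01) for the 23 members with a mean FPKM under 1, ordered by mean, controls in grey and ETS1 in orange. Most orange points lie to the right of the grey ones, while MX2, PARP14, RSAD2, GBP2 and ISG20 overlap.

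Other genes of the pathway were counted from a separate list, of which 87 were found and 39 tested. Of these, 17 were higher, 7 lower and 15 did not pass, with a median log2 change of 0.053. Over all 14306 genes the shares were 30.7% higher and 28.4% lower and the median 0.016. The related median was 0.024 at a mean FPKM of 5 or more, 0.034 with trimmed-mean scaling, 0.030 without control replicate 1, 0.11 with quantile normalization, 0.088 with chromosome medians removed and 0.17 in the authors' deposited table. JAK1, a kinase of both receptors, was 14.3, 14.2, 19.96 and 19.8 FPKM, a log2 change of 0.46 (limma adjusted p 0.000632). It rose, as STAT2 did. TYK2, the second kinase of the type I receptor, did not pass (-0.027, limma adjusted p 0.426), and JAK2 was too low to test, at 0.605, 0.650, 0.967 and 1.06 FPKM. Among the larger rises were LGALS3BP (0.71) and TRIM38 (0.54). The largest falls were in SHISA5 (-0.77), LY6E (-0.62), TRIM14 (-0.37), PNPT1 (-0.28) and LAP3 (-0.27). The interferon genes themselves were hardly detected. IFNB1 had 0, 0, 2 and 1 reads and IFNL1 0, 0, 2 and 2, and the highest of the 6 ligand genes in the list was IFNE at 0.144 FPKM in 1 ETS1 library.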

How the data were processed

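Bulk RNA of 4 TE5 libraries was analysed from 2 deposited tables. The FPKM values were computed by the authors. HISAT2, HTSeq and DESeq2 and the build GRCh38 (hg38) are named in the submitters' processing notes, and versions, annotation and the use of strand are not given in the sources used here. The comparison table, per the file headers, holds the authors' mean normalized count per gene (a signal averaged over libraries), log2 fold change with its error, and p-values for 16652 genes.

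FPKM was fitted as log2(FPKM + 1) with limma 3.58.1 in R 4.3.3 (intensity trend, group term, 2 residual degrees of freedom, 2.84 prior ones), keeping genes whose mean FPKM was 1 or more, with Benjamini-Hochberg adjustment over all 14306. An exact permutation test of 2 against 2 libraries cannot go below 0.333, and the p-values depend on the variance model that genes share. Reads were recovered as FPKM times gene length and depth, with each length set to the whole number that brings the 4 values nearest to whole reads. Within a tolerance of 0.05, 99.26%, 99.34% and 99.95% of values were whole for genes with mean normalized counts under 100, from 100 to 1000 and over 1000. For low members, reads summed per group were compared by an exact binomial interval scaled to depth (deposited FPKM times recovered scale). Positions are from GENCODE 29. On simulated data with 200 changed genes among 14283 tested, 82% were recovered and 6.29% of calls were false. The simulation set only a small spread beyond counting error, and far fewer genes changed in it than were called here. Its rates are therefore not error rates of this comparison.

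The members, the related list and the tests were chosen with earlier results of these data known. All members may be named. Values per library are given for called members with an absolute log2 change of at least 0.3 and for receptors, STATs and IRFs that passed the filter, and of the related genes at most 5 risers and 5 fallers are named, with the JAK kinases. Some genes that this rule picks are not reported here. Alternatives were pseudocount, filter, scaling, replicate block, no variance trend, voom on recovered reads, chromosome median removed, leaving out each library, and the authors' deposited values.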

Additional observations from a re-analysis of the deposited data

How the results depend on the processing

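Of 23 called members, 19 kept direction and call under all 14 alternatives that tested them. The exceptions are IFITM1, IFNAR1, USP18 and PML, and SAMHD1, HERC5 and NMI gained a call under at least 1. With no filter, 6 members too low for the main test were higher (PARP9, TRIM22, IFIT2, SP100, IFIT3 and IFI16; limma adjusted p from 0.0128 to 0.0444), which made 24 higher and 3 lower. In the 4 fits without 1 library, 1 group is a single library, assumed to vary like the other group. PML reversed, to 0.00072, with chromosome medians removed, since its change is close to the median of its chromosome. Under the stricter filter, a mean FPKM of 5 or more, 11 members were higher and 2 lower of 17 tested, fewer because fewer were tested. Of all genes, 31.2% were higher and 36.5% lower under that filter, and 10.3% and 9.24% with no filter. The members' median log2 change was 0.097 with no filter, 0.19 under the stricter filter, 0.22 with trimmed-mean scaling, 0.30 with quantile normalization, 0.19 with chromosome medians removed, 0.39 in the authors' deposited values, and 0.24 to 0.27 with each library left out in turn. The related genes' median was 0.024 under the stricter filter, 0.11 with quantile normalization, 0.088 with chromosome medians removed and 0.17 in the authors' deposited values. For medians apart from the filter settings, the cause was not tested.

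With the replicate block, 19 members were higher and 4 lower, as without it. Deviations of same-numbered libraries had a correlation of -0.0456. The labels do not say what the numbers mark, and whether same-numbered libraries share a culture or day was not tested. Depth limits the 20 members outside the authors' table, most of which have under 100 reads in each library.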

Other observations

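Neighbours of SP100 on chromosome 2 were also higher with ETS1 and, like it, under the filter. They come from the related list and were chosen after their values were seen. SP110, a nuclear body protein, was 0.032, 0.050, 0.325 and 0.332 FPKM in control 1, control 2, ETS1 1 and ETS1 2, a ratio of 8.02. SP140L was 0.044, 0.036, 0.506 and 0.429 FPKM, a ratio of 11.7. Both were far above the controls in both ETS1 libraries. Also under the filter and chosen after their values were seen, the ubiquitin ligase TRIM56 was 0.101, 0.149, 1.00 and 0.848 FPKM, and TMEM173, which encodes the DNA-sensing adaptor STING, was 0.148, 0.176, 0.547 and 0.472 FPKM.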
